A study of Gossypium barbadense and Gossypium hirsutum with 72 samples.

Results

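IAA18 (gene model CotAD_00235), annotated by the study as the cotton counterpart of an Arabidopsis gene for a repressor of auxin response, was followed across 12 groups of shoot apices. It is 1 of the 64274 gene models that were listed in any library. The study selected it on these same libraries, because nulliplex- and normal-branch cotton differed in it at the pre-squaring stage in both species and not at the other stages. Aux/IAA proteins, the family to which IAA18 belongs, are short-lived nuclear proteins that bind auxin response factors (ARFs) and keep their target genes silent. Auxin joins Aux/IAA proteins to the TIR1/AFB receptors, which mark them for destruction, and many Aux/IAA genes are themselves switched on by auxin, so that the family also works as a feedback brake. In Arabidopsis, stabilising mutations of IAA18 disturb the patterning of the embryo apex and the formation of lateral roots, and auxin from the shoot apex holds back the growth of axillary buds.

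The groups combined 2 species, 3 stages and 2 branch types, each with 3 libraries. Normal-branch plants (WT) bear their flowers on side shoots called fruiting branches. Nulliplex-branch plants (np) lack these side shoots and flower on the main stem itself. For Gossypium barbadense (Gb) the lines were Hai1 (normal) and Xinhai16 (nulliplex), and for Gossypium hirsutum (Gh) they were Huazhong 94-3130 (normal) and 3798 (nulliplex). All were inbred, field-grown lines without a transgene or a treatment, and the tissue was the shoot tip. At the seedling stage (1 in the group names) every plant had 2 leaves. At the pre-squaring stage (2), before floral buds are visible, Gb2WT had 8 leaves, Gb2np 6, Gh2WT 6 and Gh2np 5. At the squaring stage (3) the labels gave 11 leaves for Gb3WT, 9 for Gb3np, 8 for Gh3WT and 12 for Gh3np, and the study's methods gave other leaf numbers for Gb3WT and Gh3np. Each species had 1 line per branch type, so a line and its branch type cannot be told apart, and neither can a species and its lines. The replicates were described as biological, without saying whether they were separate plants, so p-values measure only the spread between these samples.

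The count tables were made from 23.9 to 28.1 times 1000000 reads per library, and 51699 to 54925 gene models were listed in it. IAA18 received 147 to 573 reads per library and 10077 in all, which covered 92.24% to 99.1% of its coding length of 1005 bases. Its level is given as RPKM, the reads per kilobase of gene model per 1000000 reads of the library. By this measure IAA18 stood above 49.0% to 84.3% of the genes listed in the same library. The position of the gene model in the genome was not analysed here. Cotton is tetraploid and carries near-identical copies of most genes, and how reads that match several copies were assigned is not given in the sources used here, so the level of IAA18 may include or omit reads of a related copy. One library stood apart from its group. In the Gh1np replicate 2 library, 4 genes of green leaf tissue summed to 125 RPKM, against 1369 and 1233 RPKM in the other Gh1np libraries and 569 to 1278 RPKM in the remaining seedling libraries (30.2 to 110 RPKM at the later stages), and 7 genes of dividing cells summed to 102.8 RPKM, against 30.2 and 26.6 RPKM. The low green leaf sum was due to the carbonic anhydrase gene CA1, at 104 RPKM in this library against 1224 and 1357 RPKM in the others of Gh1np. The remaining genes of that list (GGR, TROL and a ferredoxin-related gene) were each at their highest of Gh1np in this library. The sum therefore does not show that green leaf genes were low as a set. As the library stood apart in CA1 and in the genes of dividing cells, the fitted differences that rest on Gh1np are given with and without it. Its group mean was 12.3 RPKM with it and 14.6 RPKM without it.

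The level of IAA18 was highest in pre-squaring apices of the normal-branch G. barbadense line and lowest in the later apices of the nulliplex-branch G. hirsutum line. The mean RPKM of the Gb2WT libraries was 21.4 ± 2.28 (SD, n = 3 here and below), and that of Gh3np was 6.45 ± 1.00, a 3.32-fold difference. Between them, in falling order, were Gb1WT with 13.7 ± 1.17 RPKM, Gh2WT with 13.0 ± 0.664, Gh1np with 12.3 ± 5.22, Gb3WT with 11.1 ± 3.03 and Gb3np with 10.4 ± 2.63. These were followed by Gh1WT with 10.1 ± 3.30, Gb1np with 9.91 ± 1.28, Gb2np with 9.57 ± 0.480, Gh3WT with 8.78 ± 1.81 and Gh2np with 6.46 ± 0.431. Only the first step of this order, from Gb2WT to Gb1WT, separated neighbours whose libraries did not overlap, with a gap of 7.77 RPKM against a pooled SD of 1.82. The step from Gh3WT to Gh2np, 2.32 RPKM, exceeded its pooled SD of 1.32 although the libraries overlapped, and every other pair of neighbours differed by less than its pooled SD. The order is a description, since the pre-squaring groups were part of the choice of the gene.

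**Figure D1:**
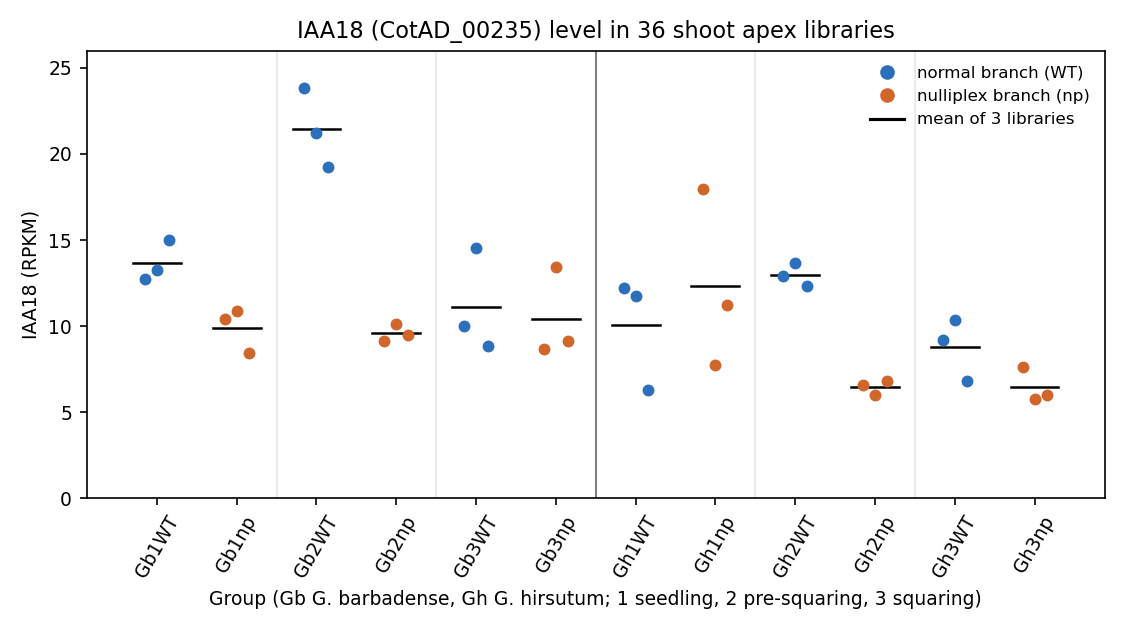
Level of IAA18 (RPKM, vertical axis) in each of the 36 libraries, by group, with points in blue for normal-branch and orange for nulliplex-branch cotton and a line at the mean of 3 libraries. The 3 Gb2WT libraries lie between 19.3 and 23.8 RPKM, above every other library, and the Gh1np libraries spread from 7.71 to 18.0 RPKM.

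The spread among replicates differed between groups. The coefficient of variation of IAA18 was 5.02% in Gb2np and 5.12% in Gh2WT, where counting reads alone would give 6.55% and 5.49%. It was 42.4% in Gh1np, 32.8% in Gh1WT, 27.2% in Gb3WT and 25.3% in Gb3np, where counting would give no more than 6.17%. The seedling groups of G. hirsutum and the squaring groups of G. barbadense therefore varied far beyond counting error, and the pre-squaring groups of 3 lines stayed near it, with Gb2WT at 10.7% against 4.38%.

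At the pre-squaring stage, on which the gene was chosen, IAA18 was lower in nulliplex- than in normal-branch apices in both species. In G. barbadense the Gb2WT libraries had 23.8, 21.2 and 19.3 RPKM and the Gb2np libraries 9.16, 10.1 and 9.45 RPKM. The lowest normal-branch library lay far above the highest nulliplex-branch library, and the ratio of the means (nulliplex to normal) was 0.447. The edgeR log2 fold change was -1.19 (SE 0.11), in a comparison in which 9.88% of all genes tested passed an adjusted p below 0.001 and an absolute log2 fold change above 1, the thresholds of a call throughout. In G. hirsutum the Gh2WT libraries had 12.9, 13.7 and 12.3 RPKM and the Gh2np libraries 6.57, 5.99 and 6.83 RPKM. These groups did not overlap either, the ratio was 0.498 and the log2 fold change was -1.03 (SE 0.13), where 0.2395% of all genes were called. As IAA18 was selected on these differences, they carry no test here. In these whole apices, fewer cells of a type and less RNA per cell cannot be told apart.

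Genes that mark dividing cells and green leaf tissue differed between the same pre-squaring groups. The 7 genes of dividing cells, among them PCNA2, a sliding clamp of DNA replication, and ORC6 of the origin recognition complex, summed to 97.5 to 118 RPKM in Gb2np against 30.1 to 45.5 RPKM in Gb2WT, a ratio of 2.77. In G. hirsutum they summed to 95.9 to 127 RPKM in Gh2np against 19.7 to 51.0 RPKM in Gh2WT, a ratio of 3.22. Single members were counted as well. The share of all genes without overlap between the same groups was not counted, here or at squaring, so these counts are a description. In G. hirsutum 7 of 7 genes were higher in Gh2np without overlap, and in G. barbadense 6 of 7 were higher in Gb2np without overlap. The exception was the cyclin gene CYCD1;1, lower in Gb2np (4.11 to 6.37 RPKM) than in Gb2WT (6.50 to 7.48 RPKM). The 4 genes of green leaf tissue, among them the carbonic anhydrase gene CA1, summed to 108 to 110 RPKM in Gb2np against 30.2 to 43.7 RPKM in Gb2WT, and to 70.4 to 80.6 RPKM in Gh2np against 32.2 to 43.6 RPKM in Gh2WT. All 4 were higher in Gb2np without overlap, and 3 of 4 in Gh2np, while TROL, a gene for a thylakoid protein, was lower in Gh2np (1.78 to 3.17 RPKM) than in Gh2WT (4.58 to 6.38 RPKM). The phloem sucrose transporter gene SUC2 moved the other way in G. barbadense, with 12.6 to 21.5 RPKM in Gb2WT and 1.42 to 1.83 RPKM in Gb2np, while in G. hirsutum it was at 1.33 to 3.01 RPKM in Gh2WT and 1.12 to 1.47 RPKM in Gh2np. SEP3, a floral organ identity gene that marks floral tissue, was at 0 in all 12 seedling libraries, at 0.111 to 1.01 RPKM in Gb2WT against 2.21 to 3.56 RPKM in Gb2np, and at 1.51 to 1.95 RPKM in Gh2WT against 4.70 to 13.2 RPKM in Gh2np. All of these genes were taken from lists that the study made from branch comparisons of these samples, so their differences between branch types are not independent of that choice, and the part of tissue makeup in the level of IAA18 was not tested.

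**Figure D2:**
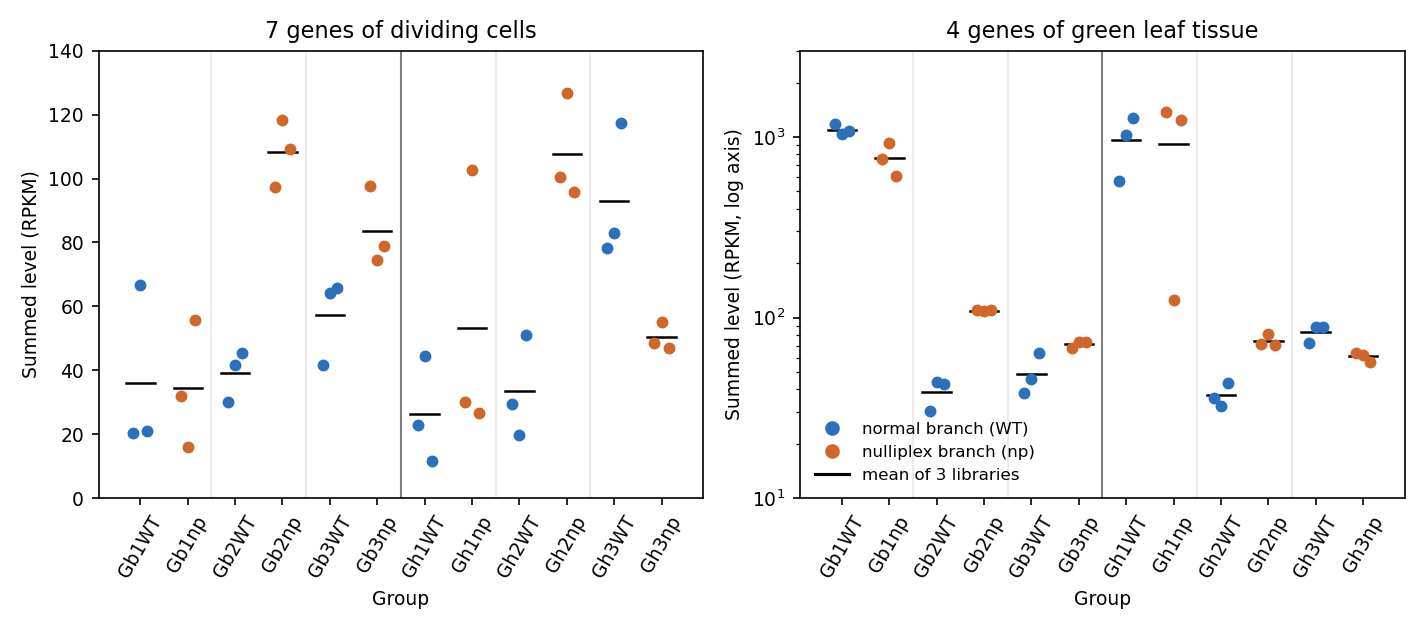
Summed RPKM of 7 genes of dividing cells (left, linear axis) and 4 genes of green leaf tissue (right, log axis) in each library, by group, with blue for normal-branch, orange for nulliplex-branch cotton and a line at the mean of 3 libraries. At the pre-squaring stage both sums were higher in nulliplex-branch libraries of both species, and the Gh1np library at 125 RPKM lies apart from the other seedling libraries in the right panel.

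At the other stages the difference between branch types was smaller. The choice of the gene favoured this, since the study took genes that differed at the pre-squaring stage and not at the others. In seedlings of G. barbadense the Gb1WT libraries had 12.7, 13.2 and 14.98 RPKM and the Gb1np libraries 10.4, 10.8 and 8.45 RPKM, a ratio of 0.726 and a log2 fold change of -0.51 (SE 0.16), with 0.429% of all genes called. The groups did not overlap, and IAA18 was again lower in nulliplex-branch apices. At squaring the Gb3WT libraries had 10.001, 14.6 and 8.84 RPKM and the Gb3np libraries 8.68, 13.4 and 9.12 RPKM, a ratio of 0.935 and a log2 fold change of -0.14 (SE 0.23), with 1.103% called, and the groups overlapped. This value was 0.08 without Gb3WT replicate 2 and -0.37 without Gb3np replicate 2. Replicate 2 was the highest library in both squaring groups of this species.

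In seedlings of G. hirsutum the Gh1WT libraries had 12.2, 11.7 and 6.27 RPKM and the Gh1np libraries 18.0, 7.71 and 11.2 RPKM. The groups overlapped widely, with a ratio of 1.22 and a log2 fold change of 0.37 (SE 0.40), which was -0.08 without Gh1np replicate 1 and 0.66 without Gh1np replicate 2. In this comparison edgeR called 0% of all genes, although 5855 of 44549 genes had an unadjusted p below 0.05, while DESeq2 called 389 genes and limma 3. At squaring the Gh3WT libraries had 9.20, 10.3 and 6.79 RPKM and the Gh3np libraries 7.61, 5.78 and 5.97 RPKM, a ratio of 0.735 and a log2 fold change of -0.52 (SE 0.19), with 1.78% of all genes called. One Gh3np library lay inside the range of Gh3WT. Unlike at the pre-squaring stage, the genes of dividing cells summed to less in Gh3np (47.0 to 55.3 RPKM) than in Gh3WT (78.3 to 117 RPKM), with 6 of 7 genes lower without overlap, while the mean of IAA18 was lower in Gh3np as at the earlier stage. CYCD1;1 was higher in Gh3np (4.94 to 10.5 RPKM) than in Gh3WT (0.505 to 0.611 RPKM).

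The change of IAA18 between stages of 1 line was not itself used to select the gene. The selection did use the branch differences at every stage, so the stage comparisons reuse the libraries on which the gene was selected. Their p-values are therefore not independent of that choice, and the comparisons also share libraries with each other. Of the 12 stage comparisons, edgeR called 0 for IAA18. At an unadjusted p below 0.05, 6 of the 12 stood out, each with the lower level at the later stage. DESeq2 also called 0 and had 5 at that level, all lower, and limma on RPKM called 0 and had 4 lower and 1 higher (Gb2WT against Gb1WT). Such p-values were common among all genes, at 10858 of 46135 genes in Gb3WT against Gb2WT. In 6 of the 12 the libraries of the groups did not overlap. The share of all genes without overlap was not counted for stages or species, so absence of overlap is a description. A fitted fold change and the ratio of mean RPKM need not be equal, because edgeR scales libraries by the bulk of the genes (TMM). Over all genes, the fitted log2 value minus the log2 ratio of mean RPKM had a median of -0.35 to -0.21 in the 8 comparisons of a later stage with seedlings and of -0.08 to 0.07 in the 16 other stage, species and branch comparisons. A missed threshold does not show that levels were alike.

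In the normal-branch line of G. barbadense, IAA18 was highest in the middle stage. Against Gb1WT, the ratio of mean RPKM in Gb2WT was 1.57 without overlap, and the log2 fold change was 0.30 (SE 0.14, adjusted p = 0.0854), in a comparison that called 20.3% of all genes. With limma on log2(RPKM + 1) it was 0.61 (adjusted p = 0.00269, where all alternatives gave 0.00269 to 0.294). From Gb2WT to Gb3WT the ratio was 0.520, again without overlap, with a log2 fold change of -0.91 (SE 0.19, adjusted p = 0.0605). No library of Gb3WT reached the lowest of Gb2WT. That comparison called 0% of genes by edgeR, although 10858 of 46135 genes had an unadjusted p below 0.05, and DESeq2 called 396 genes and limma 0. Without Gb3WT replicate 2 the fitted value was -1.14 (adjusted p = 0.0134, where all alternatives gave 0.00135 to 0.216). From Gb1WT to Gb3WT the libraries overlapped, and the log2 fold change was -0.58 (SE 0.20, adjusted p = 0.0379), with 17.4% of genes called. The log2 ratio of mean RPKM was -0.29, and limma on that scale gave -0.30 (adjusted p = 0.231, where all alternatives gave 0.00956 to 0.231). The genes of dividing cells summed to 30.1 to 45.5 RPKM in Gb2WT and 41.6 to 65.8 RPKM in Gb3WT.

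In the nulliplex-branch line of G. barbadense the mean level of IAA18 stayed between 9.57 and 10.4 RPKM at all stages, and the libraries of each pair of stages overlapped. The log2 fold change from Gb1np to Gb2np was -0.34 (SE 0.15, adjusted p = 0.0780), with 16.5% of genes called, while the log2 ratio of mean RPKM was -0.05. From Gb1np to Gb3np it was -0.21 (SE 0.21, adjusted p = 0.418) with 15.2% called, and here the log2 ratio of mean RPKM had the other sign, 0.07. From Gb2np to Gb3np it was 0.13 (SE 0.17, adjusted p = 0.587) with 4.11% called, and -0.10 without Gb3np replicate 2. The sign of the last 2 changed with the scaling or with 1 library, so no direction is given for them.

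In the normal-branch line of G. hirsutum, as in that of G. barbadense, mean RPKM was highest before squaring. From Gh1WT to Gh2WT the ratio was 1.29 and the libraries did not overlap, but the fitted log2 fold change was only 0.09 (SE 0.23, adjusted p = 0.787), with 4.94% of genes called, and it was -0.17 without Gh1WT replicate 3, the lowest of the seedling libraries. From Gh2WT to Gh3WT the ratio was 0.676 without overlap and the log2 fold change -0.50 (SE 0.18, adjusted p = 0.0544), with 2.06% called. Every Gh3WT library was below every Gh2WT library. From Gh1WT to Gh3WT the log2 fold change was -0.40 (SE 0.26, adjusted p = 0.241) with overlap, and 10.2% of genes were called.

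The largest fitted stage differences of IAA18 were in the nulliplex-branch line of G. hirsutum, where both later stages were lower than seedlings. The Gh2np libraries (5.99 to 6.83 RPKM) and the Gh3np libraries (5.78 to 7.61 RPKM) all lay below the lowest Gh1np library, at 7.71 RPKM. From Gh1np to Gh2np the log2 fold change was -1.31 (SE 0.35, adjusted p = 0.0280), with 1.19% of genes called, and from Gh1np to Gh3np it was -1.32 (SE 0.36, adjusted p = 0.0274), with 3.54% called. On the RPKM scale both log2 ratios were -0.93, and -1.18 without Gh1np replicate 2. In 1 fit of all 36 libraries, which shares 1 estimate of the spread, both differences passed the call thresholds, with adjusted p = 0.000171 and 0.000143, against backgrounds of 13.8% and 15.3% of genes called. In 1 fit of the 35 libraries without Gh1np replicate 2, an alternative chosen after seeing the data, both were called at -1.60 (adjusted p = 5.49e-06 and 4.75e-06). Over all alternatives the adjusted p of the first ranged from 5.49e-06 to 0.0904 and that of the second from 4.75e-06 to 0.0983.

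These values rested on which Gh1np libraries were kept. Without Gh1np replicate 2, the library that stood apart in its marker genes, the fitted values were -1.61 (SE 0.24, adjusted p = 0.00176) and -1.64 (SE 0.25, adjusted p = 0.00183), and the genes called over the whole transcriptome went from 546 to 5235 and from 1639 to 5485. Without Gh1np replicate 1, the library with the most IAA18, they were -0.85 (adjusted p = 0.0448) and -0.89 (adjusted p = 0.0457). The sign held in each of these fits of 2 groups, and the call threshold was not reached. Between Gh2np and Gh3np the level hardly moved, with a log2 fold change of 0.01 (SE 0.15, adjusted p = 0.958) and 3.74% of genes called, and the sign was negative without Gh2np replicate 2 (-0.05), without Gh3np replicate 1 (-0.11) and in the fit of all libraries (-0.01).

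**Figure D3:**
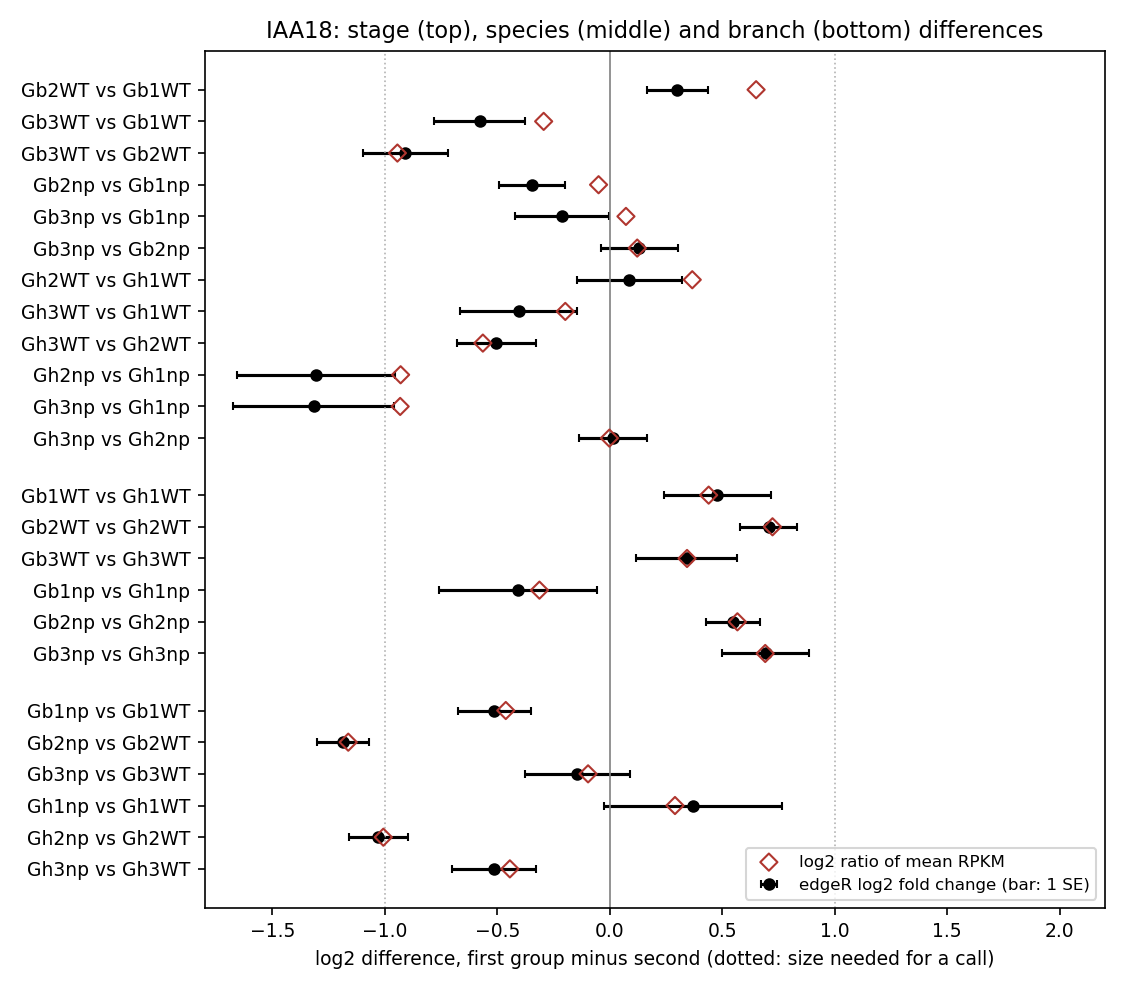
Differences of IAA18 between stages (top), species (middle) and branch types (bottom) on a log2 scale, first group minus second, with black points for the edgeR log2 fold change (bar: 1 SE), open red diamonds for the log2 ratio of mean RPKM and dotted lines at the size needed for a call. The values for Gh2np and Gh3np against Gh1np, -1.31 and -1.32, lie farthest below 0, and in comparisons with seedlings the diamonds lie to the right of the points.

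Between species, the G. barbadense group had the higher mean of IAA18 in 5 of 6 comparisons at the same stage and branch type, and edgeR called 0 of 6. Of these, 3 had an unadjusted p below 0.05, and DESeq2 and limma likewise called 0 with 3 at that level. At the pre-squaring stage the libraries did not overlap in either branch type. In normal-branch apices the ratio (Gb2WT to Gh2WT) was 1.65 and the log2 fold change 0.71 (SE 0.13, adjusted p = 0.00214), where 11.8% of genes were called. In nulliplex-branch apices the ratio (Gb2np to Gh2np) was 1.48 and the log2 fold change 0.55 (SE 0.12, adjusted p = 0.00506), with 11.03% called. Both were below the size required for a call. The libraries used were those on which the gene was selected, and both species were aligned to the G. hirsutum genome, so that a difference in alignment and a difference in level cannot be told apart.

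At squaring, the nulliplex-branch lines differed by a log2 fold change of 0.69 (Gb3np to Gh3np, SE 0.19, adjusted p = 0.0191) without overlap, with 10.3% of genes called, and the normal-branch lines by 0.34 (Gb3WT to Gh3WT, SE 0.23, adjusted p = 0.283) with overlap, with 8.11% called. In seedlings neither comparison stood out. The log2 fold change between Gb1WT and Gh1WT was 0.48 (SE 0.24, adjusted p = 0.204) without overlap, where 3.56% of genes were called. Between Gb1np and Gh1np it was -0.41 (SE 0.35, adjusted p = 0.493) with overlap and 1.42% called, 0.04 without Gh1np replicate 1 and -0.69 without Gh1np replicate 2, so that its sign depended on 1 library.

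Whether IAA18 changed differently between stages in the 2 species was tested as an interaction in the fit of all 36 libraries. In normal-branch cotton the change from seedling to pre-squaring was 0.23 higher in G. barbadense on the log2 scale (SE 0.36, adjusted p = 0.8003, 1.14% of genes called). The change from seedling to squaring differed by -0.16 (SE 0.36, adjusted p = 0.827, 1.78% called), or by 0.07 without Gh1WT replicate 3, and that from pre-squaring to squaring by -0.39 (SE 0.36, adjusted p = 0.556, 0.8503% called). No difference between the species was detectable in the normal-branch lines at this spread. In nulliplex-branch cotton the changes from seedling to pre-squaring and to squaring were 0.98 higher (SE 0.36, adjusted p = 0.0970, 0.742% called) and 1.13 higher (SE 0.36, adjusted p = 0.0418, 1.201% called) in G. barbadense, where the level had stayed near that of seedlings. Neither passed the call thresholds. Without Gh1np replicate 1 they were 0.51 (adjusted p = 0.357) and 0.67 (adjusted p = 0.174), and without Gh1np replicate 2 they were 1.26 (adjusted p = 0.0161) and 1.41 (adjusted p = 0.00674). The change from pre-squaring to squaring differed by 0.15 (SE 0.37, adjusted p = 0.897, 0.347% called), and by -0.08 without Gb3np replicate 2. In all, edgeR, DESeq2 and limma each called 0 of the 6 interactions, and each had 2 at an unadjusted p below 0.05.

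Besides IAA18, 2 annotated genes that act with auxin in Arabidopsis were followed. BRC1 (CotAD_02759) encodes a TCP transcription factor that arrests axillary buds, and HB-8 (CotAD_75643) encodes a homeodomain-leucine zipper factor of procambium that auxin induces. The study picked them on branch comparisons of these libraries too, so only stage and species tests are given. Tests with pre-squaring groups reuse libraries on which these genes were picked, so their p-values are not independent of that choice. BRC1 was tested in 9 of 12 stage comparisons and was called higher at the later stage in 2 of them, with 0 called lower. Short of a call, its log2 fold change against Gh1np was 2.00 in Gh2np (SE 0.62, adjusted p = 0.0434) and 1.88 in Gh3np (SE 0.50, adjusted p = 0.0258). These were not refitted without Gh1np replicate 2, and IAA18 was lower in both later groups. In Gb2np against Gb1np it was 1.10 (SE 0.41, adjusted p = 0.0510). The lowest value for BRC1 was -0.61 in Gb3WT against Gb2WT (SE 0.22, adjusted p = 0.148). BRC1 had 0.288, 0.249 and 0.452 RPKM in Gb1WT, 3.502, 3.32 and 3.87 RPKM in Gb2WT and 2.85, 2.01 and 1.93 RPKM in Gb3WT. The log2 fold change against Gb1WT was 3.06 in Gb2WT (SE 0.31, adjusted p = 2.79e-05), where 9.38% of all genes were called higher, and 2.48 in Gb3WT (SE 0.39, adjusted p = 0.000549), where 8.04% were. Both IAA18 and BRC1 were thus at their highest of this line in Gb2WT, and they differed in Gb1WT, where BRC1 was lowest and IAA18 was above Gb3WT in the mean.

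Between species BRC1 was tested in 5 of 6 comparisons and was called higher in G. barbadense in 1, with 0 called lower. BRC1 was listed in none of the 3 Gh2WT libraries (0 reads) against 3.32 to 3.87 RPKM in Gb2WT (adjusted p = 3.39e-05), where 5.34% of genes were called higher. BRC1 was picked on branch differences in these pre-squaring groups, so this p-value is not independent of that choice. In Gh2np, where IAA18 was low, BRC1 had 1.02, 3.64 and 1.48 RPKM. HB-8 was called in 0 of 12 stage and 0 of 6 species comparisons by edgeR. Its largest species difference was between Gb2np and Gh2np, with a log2 fold change of -1.64 (SE 0.29, adjusted p = 0.00145), opposite in sign to that of IAA18 between the same groups. Over the 36 libraries the Pearson correlation of IAA18 with BRC1 was 0.08 and with HB-8 0.07 on the log2(RPKM + 1) scale.

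The genes whose level followed IAA18 most closely were sought by the Pearson correlation of log2(RPKM + 1) over the 36 libraries, among the 43817 genes with a mean of at least 1 RPKM. The points share lines, stages and libraries, so the correlations are a description. The highest was 0.735 and the lowest -0.710, with a median over all genes of -0.05, and no gene exceeded 0.8. The 5 closest genes were CotAD_22753 (r = 0.735), CotAD_59694 (0.735), CotAD_35874 (0.719), CotAD_48988 (0.704) and CotAD_04544 (0.702), none of which has a name in the sources used here. Their Spearman correlations were 0.614, 0.658, 0.623, 0.661 and 0.603 in the same order. For CotAD_22753 the value was 0.836 over the 24 later libraries but 0.302 over the 12 seedling libraries, and 0.623 without the Gb2WT libraries of replicates 1 and 2, which lay farthest from the median of IAA18. Over the 12 group means it was 0.846, and 0.302 within groups, so most of the likeness lay between groups.

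Among the 102 annotated genes compared, those nearest to IAA18 were LEA-5 (CotAD_21416, r = 0.515), which is named for late embryogenesis abundant proteins, a gene for a tetratricopeptide repeat protein (CotAD_32730, 0.487), a gene for a kinase with a PAS domain (CotAD_28172, 0.487), TT7 (CotAD_24175, 0.457), a flavonoid hydroxylase gene, and GAUT12 (CotAD_54581, 0.444), a gene for xylan synthesis in the secondary wall. LEA-5 ranked 282 among all genes. The lowest were SEP3 (CotAD_35367, -0.541), GGR (CotAD_07016, -0.686), a geranylgeranyl reductase gene of the green leaf list, and a gene of the CAP superfamily (CotAD_68015, -0.701), which ranked 43816 of 43817. Over the 24 later libraries these 3 values were -0.770, -0.836 and -0.905. Within groups they were weaker, at -0.115, -0.072 and -0.438. Over the seedling libraries GGR had -0.239 and the CAP gene -0.141, and SEP3 was at 0 there. The other green leaf genes did not share the value of GGR over the 24 later libraries, with 0.496 for TROL, -0.456 for CA1 and -0.238 for the ferredoxin-related gene. These libraries include those on which the study chose all of them.

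**Figure D4:**
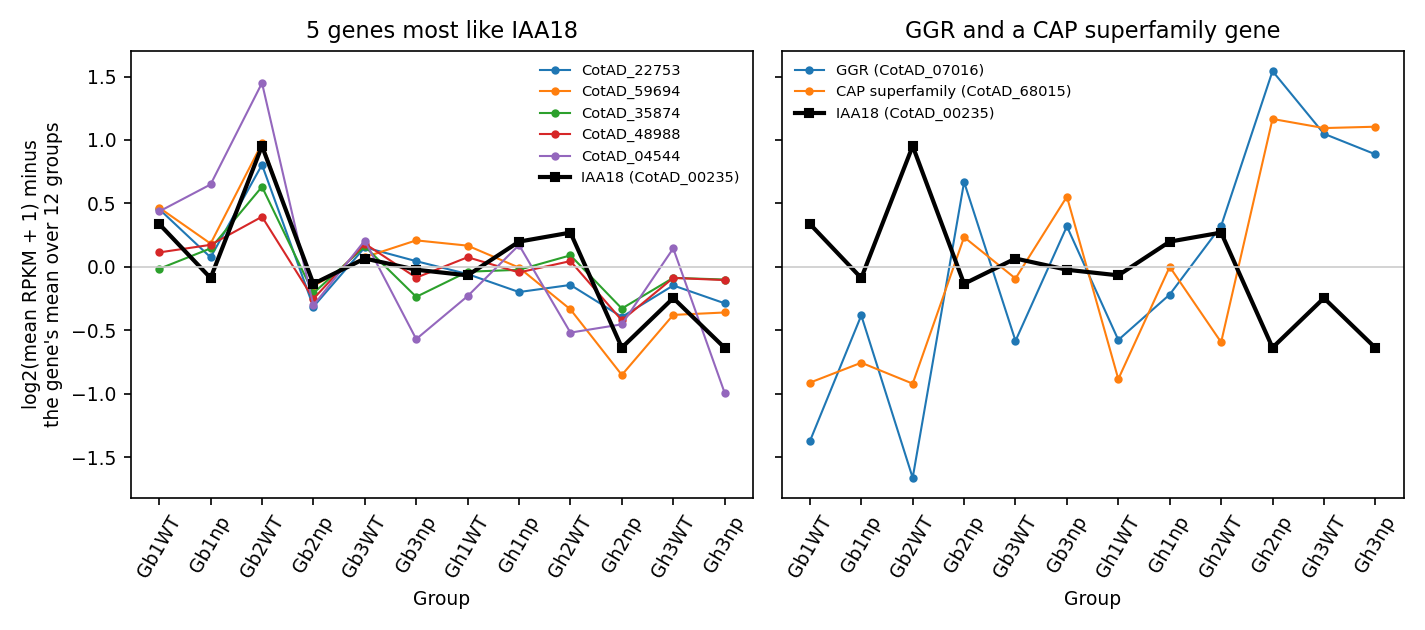
Level of IAA18 (black squares) and of the 5 genes most like it (left) or of GGR and a gene of the CAP superfamily (right), as log2(mean RPKM + 1) of each group minus the mean of that gene over 12 groups. The 5 genes share the peak of IAA18 in Gb2WT (correlations over libraries 0.702 to 0.735), and GGR and the CAP gene run opposite to it (-0.686 and -0.701).

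Small RNA libraries of the same groups held 4 miRNA families that act on auxin response in plants. miR160 and miR167 target ARF genes, miR390 starts the formation of the small RNAs that silence other ARF genes, and miR393 targets the TIR1/AFB receptor genes. Their reads were summed over all members and both arms of a family, because member names alternated between libraries. The sums were divided by the 754812 to 4329247 miRNA reads of the library (reads per 1000000, RPM). The name with the most reads was miR160a-3p in the miR160 family (82624, against 51886 for miR160) and miR393-3p in the miR393 family (1229). In the other families it was miR167h and miR390a-5p. Whether the summed reads came from the arm that acts on these targets was not examined. Between branch types, 0 of the 24 combinations of family and comparison were called by edgeR, 4 had an unadjusted p below 0.05, and DESeq2 and limma called 0, with 4 and 6 at that level. In 7 of 24 the libraries did not overlap in RPM, and the share of all families without overlap was not counted. The share of all families called was 0% in 5 of the 6 comparisons and 27.1% between Gb3np and Gb3WT (70 of 258 families). In those 5 comparisons 24 to 103 families had an unadjusted p below 0.05 and DESeq2 called 6 to 50. The 70 calls became 7 without the filter on low counts and 0 to 10 when any 1 library was left out.

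miR390 showed the clearest difference at the pre-squaring stage. It had 3639, 2895 and 3113 RPM in Gb2WT and 5246, 5714 and 4939 RPM in Gb2np, with no overlap, and a log2 fold change of 0.88 (SE 0.12, adjusted p = 0.00918), below the size of a call. In the same groups IAA18 was lower in Gb2np, and miR167 had a log2 fold change of 0.47 (adjusted p = 0.0605). At squaring miR160 had 6528, 5098 and 5265 RPM in Gb3WT and 2413, 2783 and 2888 RPM in Gb3np, a log2 fold change of -0.62 (SE 0.18, adjusted p = 0.0322), in a comparison where fitted log2 values lay 0.46 above those of RPM at the median over families. It was -0.39 without Gb3WT replicate 1, and -1.06 with limma on log2(RPM + 1). In G. hirsutum at the pre-squaring stage miR393 was at 7.54 to 9.16 RPM in Gh2np and 11.8 to 21.7 RPM in Gh2WT without overlap, with a log2 fold change of -0.99 (SE 0.44, adjusted p = 0.379), which was -0.60 without Gh2WT replicate 2 and -1.24 without Gh2WT replicate 3. The seedling stage gave the lowest mean miR160 and miR390 RPM in both lines of each species, with no test between stages. For miR160 the means were 1079 and 977 RPM in Gb1WT and Gb1np against 4636 and 3714 RPM in Gb2WT and Gb2np. In G. hirsutum they were 1102 and 1265 RPM in Gh1WT and Gh1np against 2111 and 2777 RPM in Gh2WT and Gh2np. The miR160 reads themselves differed less, with 3823 to 4210 per library in Gb1WT and 4272 to 5414 in Gb2WT. In Gh1WT they were 2478 to 2857 and in Gh2WT 1864 to 3398. RPM is a share of all miRNA reads, so a change of the family cannot be told apart from a change of that total.

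**Figure D5:**
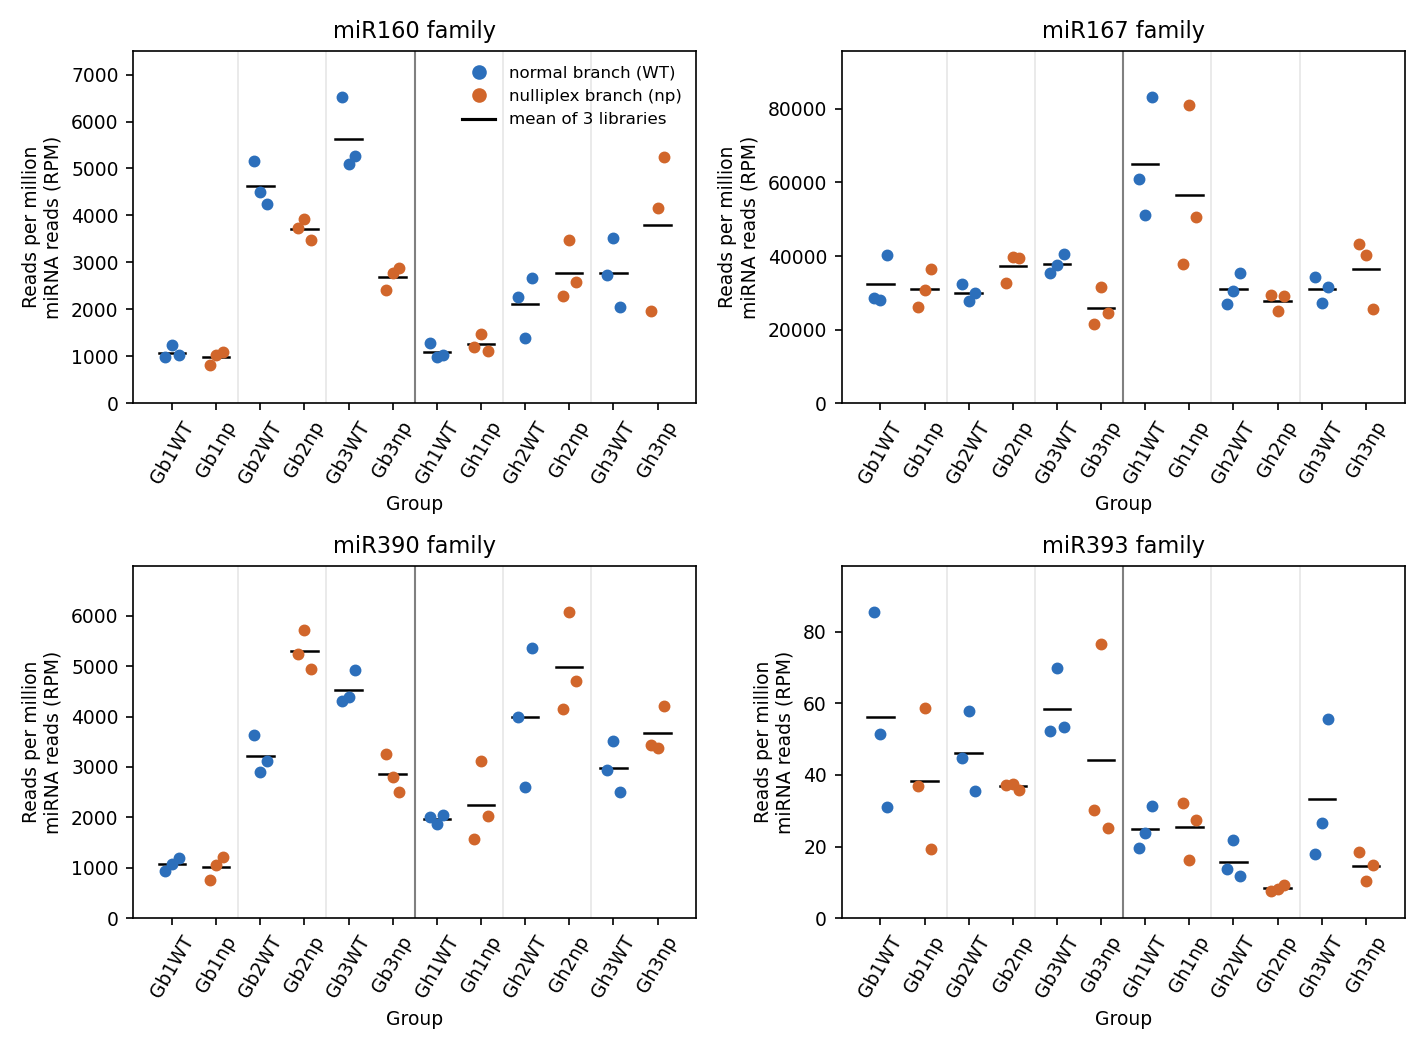
Reads per 1000000 miRNA reads (RPM, vertical axis) of the miR160, miR167, miR390 and miR393 families in each small RNA library, by group, with blue for normal-branch, orange for nulliplex-branch cotton and a line at the mean of 3 libraries. In the miR390 panel the 3 Gb2np libraries (4939 to 5714 RPM) lie above the 3 Gb2WT libraries (2895 to 3639 RPM).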

How the data were processed

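Shoot apices of 12 groups were profiled by RNA-seq and small RNA sequencing (Illumina HiSeq), with 3 libraries per group. Per the study's methods, the authors removed low-quality and adaptor reads and aligned both species to the G. hirsutum genome of CAAS with SOAP2. The deposited count of unique reads per gene model is unnormalised, and the deposited RPKM values follow from counts, gene length and library total, which recomputation matched. The deposited coverage column gives the covered share of each gene model, and deposited miRNA counts give reads per miRNA name. A gene not listed in a library was counted as 0. All lengths were multiples of 3, so they are coding lengths.

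Counts were tested with edgeR 4.0.16 in R 4.3.3 (quasi-likelihood test, TMM, filterByExpr with a minimum count of 10, Benjamini-Hochberg adjustment over all genes or families), 1 fit per comparison, with interactions in 1 fit of all 36 libraries. Calls required an adjusted p below 0.001 and an absolute log2 fold change above 1, as in the study, which used DESeq. Alternatives were no filter, DESeq2 1.42.0, limma 3.58.1 on log2(RPKM + 1) or log2(RPM + 1), 1 fit of all libraries or, for interactions, only 12 libraries, a replicate block, and leaving out each library. Scripts were tested on simulated data. IAA18 has 147 to 573 reads per library, and counting error is below the spread of most groups. The 36 pairs of replicates differed beyond sampling noise (chi-square per gene 2.10 to 80.0). Groups came from the strain, age and genotype labels.

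Replicate numbers were checked for pairing. In 0 of 24 comparisons did all same-numbered pairs of deviations from the group means correlate above 0.1, with a range of -0.54 to 0.26. The genes named are IAA18, the auxin-linked genes and miRNA families, marker genes of other tissues, the 5 genes with the highest correlation with IAA18 over libraries, and among annotated genes the 5 highest and 3 lowest. The member and all lists were chosen with earlier results of these data known. Annotations came from the study's tables, and the gene model identifiers matched 0 entries of the reference table used here, so no sequence is shown.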

Additional observations from a re-analysis of the deposited data

Results flagged for a closer look

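From seedling to pre-squaring, the RPKM of IAA18 moved in opposite directions in the 2 branch types of G. hirsutum. The ratio of mean RPKM was 1.29 in normal-branch apices, where every Gh2WT library was above every Gh1WT library, and 0.525 in nulliplex-branch apices, where every Gh2np library was below every Gh1np library (0.442 without Gh1np replicate 2). This was 1 of 30 pairs of contrasts in which every library of a group moved opposite to another. The choice of the gene favoured such a pattern, and the share of all genes that meet this rule was not counted. The difference between these contrasts was not tested, as it contains the pre-squaring difference on which the gene was selected. On the fitted scale the edgeR log2 fold change of Gh2WT against Gh1WT was only 0.09 (SE 0.23, adjusted p = 0.787) and became -0.17 without Gh1WT replicate 3. Single libraries were not examined for outlying values by a formal rule, since all groups held 3.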

How the results depend on the processing

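Of 90 alternative fits of the stage and species differences that used all libraries of the groups, 85 kept direction and side of the thresholds. With limma on log2(RPKM + 1), Gb3np against Gb1np was 0.048 and Gh3np against Gh2np -0.0084. In 1 fit of all libraries Gh3np against Gh2np was -0.0074, and Gh2np and Gh3np against Gh1np were called at -1.31 and -1.32, as they were in the fit of the 35 libraries without Gh1np replicate 2, added after seeing the data (both -1.60). The branch difference Gh2np against Gh2WT, a description, was -0.91 with limma, and the other 29 alternatives for branch differences moved by less than the spread between replicates. All 30 alternatives of the interactions and all 60 alternatives of the miRNA counts stayed as in the report. The cause of each change was not tested.

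Leaving out 1 library from the planned fits changed no call in 180 fits, and the sign of 6 tested differences. The ranges were -0.10 to 0.25 for Gb3np against Gb2np, -0.17 to 0.19 for Gh2WT against Gh1WT, -0.11 to 0.10 for Gh3np against Gh2np, -0.69 to 0.037 for Gb1np against Gh1np, -0.39 to 0.070 for the normal-branch interaction of squaring against seedling, and -0.078 to 0.28 for the nulliplex-branch interaction of squaring against pre-squaring. Of the branch differences, which are descriptions, the sign also changed at squaring in G. barbadense (-0.37 to 0.08) and in seedlings of G. hirsutum (-0.08 to 0.66).

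The replicate numbers did not pair the samples, and in 2 of 24 comparisons every sample correlated best with its own number. With a replicate block the calls of IAA18 stayed the same, with Gh2np against Gh1np at -1.19 and Gb2WT against Gb1WT at 0.30, while the genes called over the 18 stage and species comparisons ranged from 0 to 8624, against 0 to 9304 without it.

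The number of genes called depended on the tool. Over the same 18 comparisons it was 396 to 11523 by DESeq2, 0 to 7566 by limma, 0 to 10039 without a filter and 5 to 10934 in 1 fit of all libraries. Over the 6 branch comparisons edgeR called 0 to 4594 genes and DESeq2 389 to 5183, and over the 6 interactions 179 to 918 and 595 to 2046. The 70 miRNA families called between Gb3np and Gb3WT became 112 by DESeq2, 81 by limma, 7 without a filter and 0 with the replicate block. With 3 libraries a group and a coefficient of variation of up to 42.4%, small differences of IAA18 were not detectable.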
